A study of Mus musculus with 23 samples.

Results

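The genes of photoreceptors and of phototransduction were followed across mouse cerebellar tumours and normal cerebellum. The set was chosen by symbol and held 42 genes, of which 10 are used by rods, 8 by cones and 24 by both cell types. Of these, 38 were measured among the 18194 genes of the array (9 rod, 7 cone and 22 shared genes), each through the probe set that carries no other symbol and is brightest on average across the 23 arrays. Nr2e3, Cnga3, Gucy2f and Impg2 had no single-symbol probe set and were not analysed here.

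RNA was hybridised to 23 Affymetrix arrays that cover the mouse genome, and levels are log2 RMA values, so that a difference of 1 is a 2-fold change. Of the tumours, 3 were made by disrupting the Shh receptor gene Ptch1 with Cas9 and a guide RNA. These CRISPR-Ptch1 tumours comprised 2 induced by in utero electroporation of wild-type embryos (EP) and 1 induced by transfection of the newborn cerebellum (TF), which the study obtained in Trp53-/- mice. Another 4 tumours came from Ptch1+/- mice, which carry a germline disruption of the gene, and 5 MERP tumours arose after postnatal loss of Ptch1 in Math1-expressing cells. The 4 GTML tumours were driven by overexpression of the Mycn oncogene and arose sporadically. The labels do not name the promoter of the transgene, and the study's legend spells the model out as Glt1-TRE, MycN and Luciferase. The normal references were 3 samples of granule neuron progenitors (GNPs), isolated between postnatal days 4 and 7, and 4 adult cerebella. All samples are labelled CD1, although the study's methods name C57BL/6N for transfected mice, and sex and the age of the tumour-bearing mice are not given. No label says that the arrays of a group come from separate animals, so p-values measure the spread between these samples. The design asks how far tumours of different origin resemble each other and normal cerebellum.

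In photoreceptors, light isomerises the retinal bound to a visual pigment, which activates the G protein transducin. Transducin releases the inhibitory subunits of phosphodiesterase 6, cyclic GMP falls, and cyclic nucleotide-gated channels close. Arrestins, a receptor kinase and regulators of G protein signalling end the response, and guanylate cyclases restore cyclic GMP. Rods and cones use different versions of many of these proteins, and the homeodomain factor CRX switches on genes of both, with the leucine zipper factor NRL acting in rods. Many of these genes are best known from retina and pineal gland, while some, such as Pde6d and Unc119, are also made in other tissues.

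The array medians lay between 5.999 and 6.17 and the lower quartiles between 4.40 and 4.61, and a group mean at or below the lower quartile was read as near background. Ptch1 was between 12.78 and 13.09 in CRISPR-Ptch1 tumours and between 9.70 and 10.91 in GTML tumours. The Mycn probe set lay between 7.15 and 8.39 in GTML tumours. It lay between 11.67 and 12.57 in CRISPR-Ptch1, MERP and Ptch1+/- tumours and the GNPs. Whether it reads the GTML transgene was not tested, and the label was not checked by it. Markers of granule neuron precursors averaged 7.02 to 7.72 over 8 genes on the GTML arrays. They averaged 10.41 to 11.30 in CRISPR-Ptch1, MERP and Ptch1+/- tumours and the GNPs. Atoh1 differed by -5.85 between GTML and MERP (SE 0.25, limma adjusted p = 1.64e-13), while Insm1 was 11.60 to 11.82 in GTML tumours. Against adult cerebellum, 3 of the 8 were called higher in GTML tumours and 4 lower, where 27.3% of all genes were higher and 27.9% lower.

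In GTML tumours, a large share of the photoreceptor genes stood above every other sample, some narrowly and some widely. For 20 of the 38 measured genes, all 4 GTML arrays lay above all 19 others, against 3.63% of all genes tested. These were 5 of 9 rod genes (Nrl, Sag, Gngt1, Pde6b and Pde6g), 5 of 7 cone genes (Gnat2, Gngt2, Gnb3, Pde6c and Pde6h) and 10 of 22 shared genes (Crx, Guca1a, Pdc, Aipl1, Mpp4, Cdhr1, Rbp3, Abca4, Tulp1 and Unc119). Between the lowest GTML array and the highest other array the gap ranged from 0.04 (Pde6h and Pde6b) to 4.68 (Sag). Both rod and cone genes were therefore among them.

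**Figure D1:**
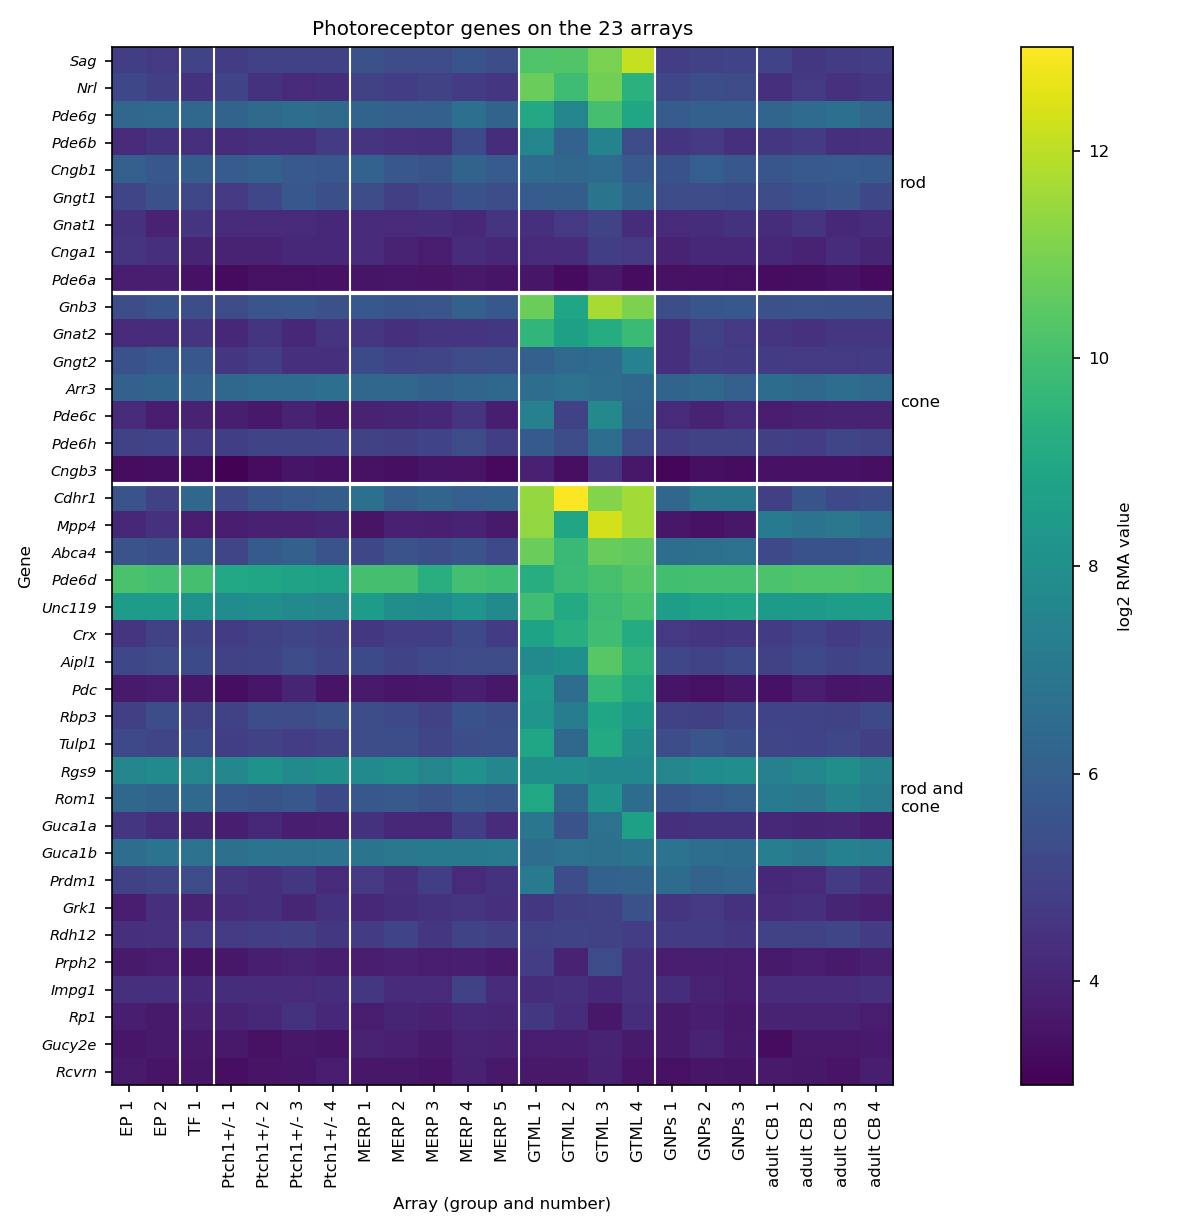
Heat map of the 38 measured photoreceptor genes (rows, in rod, cone and shared blocks) on the 23 arrays (columns, grouped by model), with colour giving the log2 RMA value. In 20 rows the 4 GTML columns exceed all 19 other arrays, some only narrowly. Rows such as Rcvrn, Gucy2e and Pde6a stay dark throughout.

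The promoter sequences are shown because CRX is among the genes that stood apart and its recognition motif is known. RefSeq windows (GRCm38.p6, from 250 bases before to 50 bases after the start site) were at hand for 28 measured genes. The letters TAATCC, or GGATTA on the other strand, occurred in 13 of the 28 (46.4%), against 8.1% of 27025 genes with such windows and 7.1% of 32851 windows. The motif was in 10 of the 16 genes whose GTML arrays lay above all others and in 3 of the other 12, which were Cnga1, Cngb1 and Gucy2e. The core TCAGCA, or TGCTGA, which is part of sites for NRL-type factors, occurred in 9 of 28 (32.1%), against 21.7% of genes, and its hits do not overlap those of TAATCC. Both strands were searched, and a match is a description of the letters only. The windows of 5 genes are printed 5′ to 3′ on the strand of the gene, with matches in capitals: Crx itself, which holds the motif at -94 and -21 from the start site; Sag, at -87, with TGCTGA at -187; Gnat2, at -19; Abca4, at -58; and, as a gene near the median of the arrays in GTML tumours, Cngb1, at -58 and -25. They lie at chr7:15879906-15880205 on the minus strand (Crx), chr1:87803430-87803729 on the plus strand (Sag), chr3:108092816-108093115 on the plus strand (Gnat2), chr3:122044210-122044509 on the plus strand (Abca4) and chr8:95306536-95306835 on the minus strand (Cngb1).
Crx: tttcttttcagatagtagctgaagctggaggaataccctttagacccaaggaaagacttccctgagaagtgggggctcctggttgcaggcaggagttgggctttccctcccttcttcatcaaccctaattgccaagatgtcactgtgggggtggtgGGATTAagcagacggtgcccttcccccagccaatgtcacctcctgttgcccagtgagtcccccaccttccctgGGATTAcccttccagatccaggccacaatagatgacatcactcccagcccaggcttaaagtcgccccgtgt
Sag: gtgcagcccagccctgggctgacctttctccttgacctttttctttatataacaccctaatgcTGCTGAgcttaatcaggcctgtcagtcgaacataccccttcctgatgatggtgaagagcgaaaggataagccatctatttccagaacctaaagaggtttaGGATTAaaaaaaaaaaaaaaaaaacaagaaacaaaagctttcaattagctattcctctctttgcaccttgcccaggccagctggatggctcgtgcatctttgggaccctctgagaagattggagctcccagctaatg
Gnat2: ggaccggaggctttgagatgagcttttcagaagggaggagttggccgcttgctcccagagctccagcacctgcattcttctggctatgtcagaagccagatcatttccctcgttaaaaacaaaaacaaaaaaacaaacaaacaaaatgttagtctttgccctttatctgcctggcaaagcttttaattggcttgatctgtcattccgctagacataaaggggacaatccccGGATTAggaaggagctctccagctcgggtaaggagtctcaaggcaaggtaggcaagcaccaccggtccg
Abca4: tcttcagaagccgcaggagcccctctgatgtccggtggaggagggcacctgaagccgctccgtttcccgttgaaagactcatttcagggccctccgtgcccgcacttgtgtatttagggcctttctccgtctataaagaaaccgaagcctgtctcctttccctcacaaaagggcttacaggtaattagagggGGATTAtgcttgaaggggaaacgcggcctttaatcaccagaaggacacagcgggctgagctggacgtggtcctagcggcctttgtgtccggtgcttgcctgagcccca
Cngb1: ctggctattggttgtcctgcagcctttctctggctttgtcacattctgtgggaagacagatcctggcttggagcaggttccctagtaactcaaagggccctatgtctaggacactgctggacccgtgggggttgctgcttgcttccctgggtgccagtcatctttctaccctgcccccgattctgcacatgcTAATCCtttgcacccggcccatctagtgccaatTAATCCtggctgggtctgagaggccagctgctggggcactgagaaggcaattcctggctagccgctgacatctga

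Of the transcription factors of the set, 3 were measured. Crx, the homeodomain factor, was 8.80, 9.29, 9.95 and 9.14 on the GTML arrays and between 4.54 and 5.21 on the 19 others. The groups did not overlap, and the gap was 3.59. Crx differed by 4.40 from adult cerebellum (SE 0.18, limma adjusted p = 1.23e-14), by 4.45 from MERP and by 4.34 from Ptch1+/-, a fold of 21.1 against adult cerebellum. Where the comparison group is near background, such a fold is a lower limit. A second Crx probe set, not used here for the gene, was between 10.69 and 11.73 on the GTML arrays and between 2.98 and 3.70 on the others. Nrl, which specifies rods, was 10.70, 9.90, 10.86 and 9.40 in GTML tumours and between 4.18 and 5.42 elsewhere. It differed by 5.71 from adult cerebellum (SE 0.24, limma adjusted p = 2.56e-14) and by 4.94 from GNPs. Prdm1, a repressor of the bipolar cell programme, was 7.12, 5.38, 6.11 and 6.20 in GTML tumours, but 6.52, 6.20 and 6.32 in the GNPs. GTML and GNP values overlapped (difference -0.14, SE 0.26, limma adjusted p = 0.69), whereas GTML exceeded adult cerebellum by 1.81. The GNP samples also had an average of 9.45 to 10.03 over 6 endothelial and pericyte markers, against 6.34 to 7.94 on the other arrays, and the part of such cells in the Prdm1 value was not tested.

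**Figure D2:**
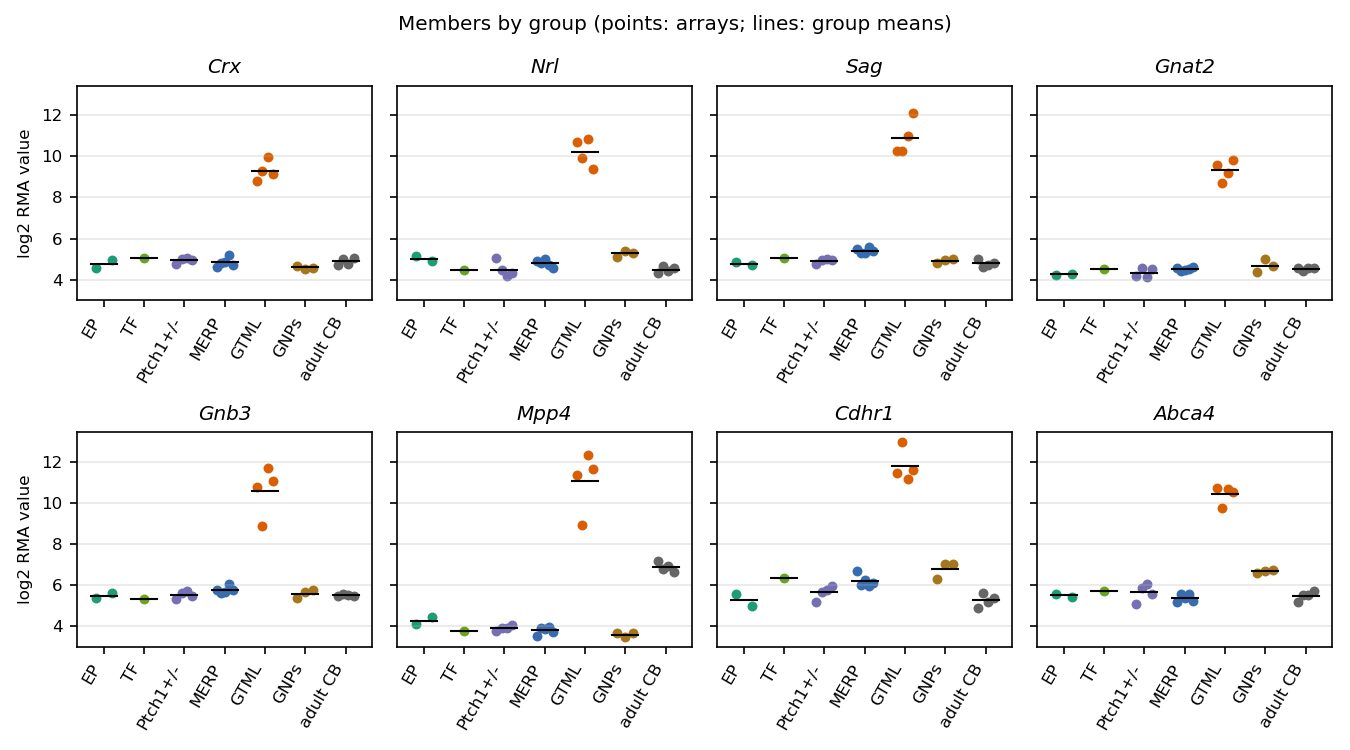
Strip plots of Crx, Nrl, Sag, Gnat2, Gnb3, Mpp4, Cdhr1 and Abca4, with the log2 RMA value on the y axis and the groups on the x axis; each point is an array and each line a group mean. In all 8 panels the GTML points lie above the others, and among the other groups Mpp4 is highest in adult cerebellum (6.64 to 7.17) and Abca4 in the GNPs (6.60 to 6.71).

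Of the 5 transducin subunits, 4 were higher in GTML tumours than in adult cerebellum, where 27.3% of all genes were called higher. Gnat2, the cone transducin alpha subunit, was 9.57, 8.70, 9.19 and 9.84 in GTML tumours and between 4.14 and 4.99 on the others. It differed by 4.79 from adult cerebellum (SE 0.18, limma adjusted p = 2.95e-15). Gnb3, the cone beta subunit, was 10.76, 8.87, 11.68 and 11.04, against 5.32 to 6.07 elsewhere. Its difference from adult cerebellum was 5.08 (SE 0.34, limma adjusted p = 4.85e-11). Gngt2, the cone gamma subunit, was 6.05, 6.42, 6.49 and 7.43, against 4.33 to 5.76. In CRISPR-Ptch1 tumours it was 5.54, 5.76 and 5.72, and in the adult cerebella 4.78, 4.68, 4.69 and 4.75. Gngt2 thus also stood above adult cerebellum in CRISPR-Ptch1 tumours (0.95, SE 0.21, limma adjusted p = 0.000819). The average of 8 microglia and macrophage markers, cells that also express Gngt2, was 8.98 to 10.18 in CRISPR-Ptch1 tumours, 7.53 to 7.64 in adult cerebellum and 7.79 to 8.60 in GTML tumours, and its part in these values was not tested. Gngt1, the rod gamma subunit, was 5.90, 5.94, 6.83 and 6.21 in GTML tumours, 0.80 above adult cerebellum. Gnat1, the rod alpha subunit, was 4.35, 4.66, 5.06 and 4.27 in GTML tumours and no higher than 4.54 elsewhere. The cone alpha subunit therefore moved widely, while the rod alpha subunit was 0.26 above adult cerebellum (SE 0.15, limma adjusted p = 0.14) and passed against Ptch1+/- only by a narrow margin (0.37, limma adjusted p = 0.0498).

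Of the 6 phosphodiesterase 6 subunits, the catalytic and inhibitory subunits split by gene. Pde6b, a rod catalytic subunit, was 7.58, 6.15, 7.47 and 5.30 in GTML tumours and between 4.18 and 5.25 elsewhere, and its lowest GTML array exceeded the highest other array by 0.04. Pde6c, the cone catalytic subunit, was 7.37, 4.96, 7.71 and 6.21, against 3.69 to 4.50. Pde6g, the rod inhibitory subunit, was 9.05, 7.60, 10.06 and 8.90, against 5.90 to 6.65. All 3 were higher than in adult cerebellum, by 2.08 (SE 0.34, limma adjusted p = 1.65e-05), 2.65 (SE 0.36, limma adjusted p = 1.51e-06) and 2.47 (SE 0.30, limma adjusted p = 2.98e-07). Pde6h, the cone inhibitory subunit, was 5.81, 5.36, 6.62 and 5.35 (0.85 above adult cerebellum). Pde6a, the other rod catalytic subunit, lay between 3.31 and 3.68 in GTML tumours, at background, and did not pass in any GTML comparison. Pde6d, a prenyl-binding protein found in many cell types, was 9.23, 9.82, 10.11 and 10.33 in GTML tumours and 9.01, 8.87, 8.77 and 8.73 in Ptch1+/- tumours. The Ptch1+/- arrays lay below all others for this gene, with a difference of 1.23 from CRISPR-Ptch1 tumours (SE 0.19, limma adjusted p = 5.12e-05).

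The channel subunits changed little. Cnga1, the rod channel alpha subunit, lay between 4.19 and 4.87 in GTML tumours, Cngb3, the cone beta subunit, between 3.41 and 4.60, and Cngb1, the rod beta subunit, between 5.79 and 6.51. None of the 3 separated the GTML arrays from the others, although each passed in 3 or more comparisons with GTML, with differences of 0.38 to 0.60. Gucy2e, a guanylate cyclase, was between 3.71 and 3.95. Guca1b, a cyclase activator, was between 6.58 and 6.83 in GTML tumours and 7.28, 6.996, 7.38 and 7.28 in the adult cerebella, a difference of -0.52 (SE 0.10, limma adjusted p = 0.000108). By contrast, Guca1a, the other activator, was 6.94, 5.55, 6.73 and 8.70 in GTML tumours and between 3.84 and 4.86 elsewhere, with a difference of 2.95 from adult cerebellum (SE 0.38, limma adjusted p = 6.91e-07).

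Among the genes that shut off or regulate the cascade, Sag, the rod arrestin, was 10.26, 10.28, 10.99 and 12.12 in GTML tumours and between 4.64 and 5.59 on the others. Its gap of 4.68 was the widest of the 20, and its difference from adult cerebellum was 6.12 (SE 0.26, limma adjusted p = 1.85e-14), a fold of 69.5. Pdc, which binds transducin beta and gamma subunits, was 8.37, 6.56, 9.65 and 9.03, against 3.36 to 4.05. It was 4.77 above adult cerebellum. Arr3, the cone arrestin, was 6.56, 6.79, 6.58 and 6.33 and overlapped the others, which spanned 6.03 to 6.66. Rgs9, the regulator of G protein signalling, was between 7.65 and 7.99 in GTML tumours and 7.36 to 8.12 elsewhere, and Rcvrn, the calcium sensor recoverin, between 3.54 and 3.92. Grk1, a receptor kinase of photoreceptors, was 4.62, 4.89, 4.94 and 5.49 in GTML tumours, against 3.76 to 4.65, so that 1 array overlapped the highest other array by 0.02.

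Genes of the outer segment, its cilium and the photoreceptor synapse included the widest differences of the set. Cdhr1, a cadherin at the base of the outer segment, was 11.43, 12.94, 11.16 and 11.60 in GTML tumours and between 4.90 and 7.03 elsewhere. It was 6.51 above adult cerebellum (SE 0.32, limma adjusted p = 2.77e-13), a fold of 91.0. In the GNPs, Cdhr1 was 6.31, 7.02 and 7.03, above CRISPR-Ptch1 tumours (5.57, 4.98 and 6.35), which differed from them by -1.16 (SE 0.37, limma adjusted p = 0.0412). That call was lost without EP array 1 or 2, GNP array 2 or 3 or adult array 3 or 4, at differences of -1.16 to -0.83. Mpp4, a scaffold of the photoreceptor terminal, was 11.37, 8.93, 12.34 and 11.62 in GTML tumours and 7.17, 6.80, 6.95 and 6.64 in the adult cerebella. On the remaining arrays Mpp4 was 3.48 to 4.43. Among the genes higher in GTML tumours, Mpp4 had the largest increase of all 18194 genes over the GNPs, MERP, Ptch1+/- and CRISPR-Ptch1 tumours, with 7.47, 7.27, 7.15 and 6.96, and its increase stood at rank 143 over adult cerebellum (4.18, SE 0.42, limma adjusted p = 2.2e-08). Rom1 and Prph2, tetraspanins of the disc rim, had 6.33 to 8.97 and 3.97 to 5.30 in GTML tumours. Rom1 was high in 2 of the 4 GTML arrays (8.97 and 8.16) and reached 7.46 in adult cerebellum. Rp1 and Impg1, of the axoneme and the surrounding matrix, were at background in GTML tumours.

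The retinoid genes and the chaperones were raised in part. Abca4, the retinoid flippase of the disc, was 10.70, 9.73, 10.69 and 10.55 in GTML tumours and 6.60, 6.70 and 6.71 in the GNPs, with 5.08 to 6.07 on the rest. It was 4.93 above adult cerebellum (SE 0.20, limma adjusted p = 1.12e-14) and 3.75 above the GNPs. Of 6 choroid plexus markers, 5 were called lower and 1 higher in GTML tumours than in GNPs, where 25.7% of all genes were lower and 16.1% higher. Among these markers, Folr1 averaged 9.30 in the GNPs and 5.02 to 5.74 in the other groups. The part of such cells in the Abca4 values was not tested. Rbp3, the interphotoreceptor retinoid carrier, was 8.26, 7.19, 8.88 and 8.44, against 4.88 to 5.53. Rbp3 was 3.14 above adult cerebellum. Rdh12, a retinol dehydrogenase, was between 4.82 and 5.04 in GTML tumours and did not separate them, although its unused probe set did (4.40 to 5.66 against 3.40 to 4.39). Aipl1, the chaperone of phosphodiesterase 6, was 7.80, 8.02, 10.40 and 9.50, against 4.96 to 5.34, and Tulp1, needed for transport to the outer segment, was 8.88, 6.38, 9.12 and 7.93, against 4.80 to 5.66. Unc119, a lipid-binding carrier of transducin that is also made elsewhere, was 9.93, 9.10, 9.84 and 10.08, against 7.62 to 8.84. Aipl1, Tulp1 and Unc119 were above adult cerebellum by 3.82, 3.05 and 1.23.

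In the fit over all genes, 30 of the 38 members differed among the 6 groups, against 76.1% of all genes. The GTML comparisons carried most of the calls. Against adult cerebellum 27 members were called, 26 higher and 1 lower, where 55.3% of all genes were called (27.3% higher, 27.9% lower). Against GNPs 28 were called, all higher, where 41.8% of all genes were called (16.1% higher, 25.7% lower). Against MERP tumours 28 were called, 27 higher and 1 lower, where 39.2% of all genes were called (15.8% higher, 23.4% lower). Against Ptch1+/- tumours 29 were called, all higher, where 43.6% of all genes were called (27.1% higher, 16.6% lower). CRISPR-Ptch1 tumours differed from GTML tumours in 27 members, all lower, where 36.8% of all genes were called (22.7% higher, 14.1% lower). The member lower in GTML tumours was Guca1b both times. The median of the members' differences was 1.05, 0.96, 1.53 and 1.85 against adult cerebellum, GNPs, MERP and Ptch1+/-, while the median over all genes was 0.04, -0.01, -0.04 and 0.09. These comparisons share the GTML arrays.

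**Figure D3:**
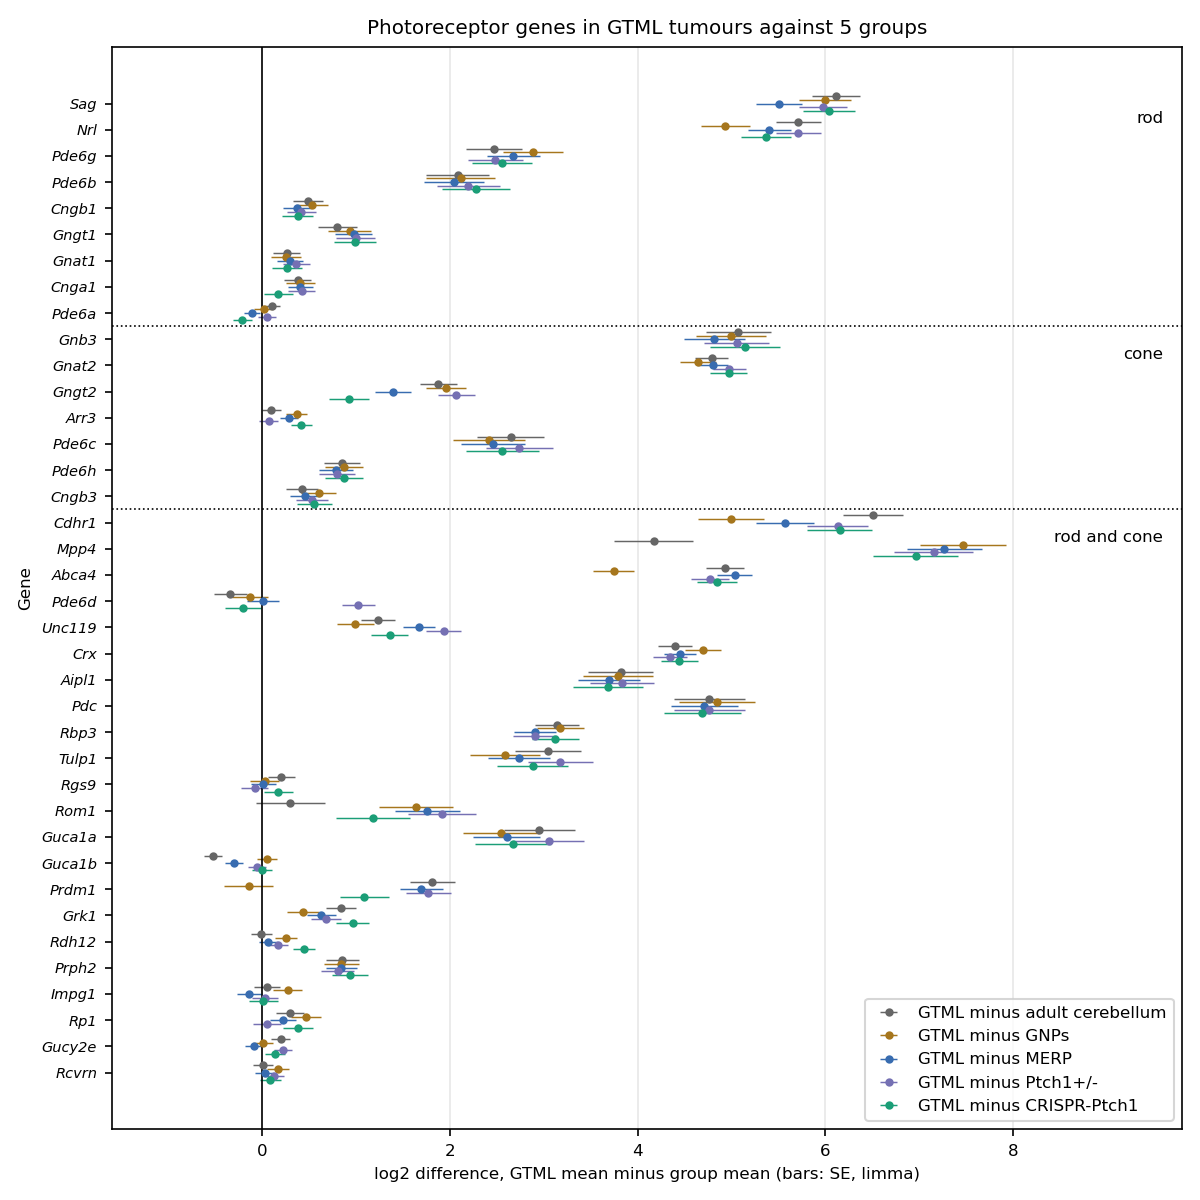
Differences of the 38 members, as log2 difference of GTML mean minus group mean (x axis; points are limma estimates, bars their standard errors) for adult cerebellum, GNPs, MERP, Ptch1+/- and CRISPR-Ptch1, with genes on the y axis in rod, cone and shared blocks. Sag, Nrl, Gnb3, Gnat2, Cdhr1, Mpp4, Abca4, Crx and Pdc lie beyond 3.7 in every comparison, and Prdm1 lies below 0 only against the GNPs.

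Of the comparisons without GTML tumours, only those of CRISPR-Ptch1 tumours were run, and their counts depended on the fit, at 16, 14, 11 and 16 members with array weights against adult cerebellum, GNPs, MERP and Ptch1+/-. In the fit without weights, CRISPR-Ptch1 tumours differed from adult cerebellum in 7 members, 3 higher and 4 lower, where 47.5% of all genes were called (26.4% higher, 21.1% lower). They differed from the GNPs in 4 members, where Gngt2 was higher and Prdm1, Abca4 and Cdhr1 were lower, against 13.7% of all genes (5.79% higher, 7.95% lower). From MERP tumours they differed in 1 member, Rdh12, which was lower by 0.38, against 13.3% of all genes (8.2% higher, 5.15% lower). From Ptch1+/- tumours they differed in 6 members, 5 higher and 1 lower, against 36.8% of all genes (28.5% higher, 8.33% lower). Those higher than in Ptch1+/- tumours were Gngt2, Pde6a, Pde6d, Prdm1 and Unc119, and Arr3 was lower. The gene median of the arrays was 7.46 to 7.55 in CRISPR-Ptch1 and 6.94 to 7.22 in Ptch1+/- tumours, and centring on it, chosen after seeing the data, left 2 members higher and 16 lower. The call of Prdm1 against Ptch1+/- tumours was lost without EP array 1 or 2, the TF array, Ptch1+/- array 1, 2 or 4, GNP array 3 or adult array 4, at differences of 0.59 to 0.76. That of Unc119 was lost without EP array 1 or 2 or Ptch1+/- array 3 or 4, at 0.49 to 0.56. Prdm1 was also called above adult cerebellum, a call lost without EP array 2, the TF array or adult array 1 or 2, at 0.63 to 0.74. Against adult cerebellum, Mpp4 was lower by 2.79 (SE 0.45, limma adjusted p = 2.62e-05), and Guca1b, Rdh12 and Arr3 were lower by 0.52, 0.46 and 0.32.

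The 4 GTML tumours did not carry the genes to the same height. For the 20 genes above all other arrays, GTML array 3 was the highest in 12 and array 2 the lowest in 11. The same shares over all genes are not given here. The gene median was 6.99 on GTML array 2 and 7.12 to 7.36 on the other GTML arrays, and its part in these ranks was not tested. The standard deviation over the 4 arrays ranged from 0.43 for Gngt1 to 1.48 for Mpp4. Array 2 also had the lowest average of the 6 astrocyte markers (6.87, against 9.36 to 9.64) and of the 6 oligodendrocyte markers (4.59, against 6.50 to 8.62), and the share of such cells in these differences was not tested. In bulk tissue, fewer cells of a type and less RNA per cell cannot be told apart.

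Other genes of photoreceptors and of retinal fate were read from lists of their own. Of 16 photoreceptor and retinal fate factors measured, 7 had all GTML arrays above all others, against 3.63% of all genes tested. These were Otx2, Rorb, Casz1, Rxrg, Onecut1, Rax and Isl2, and not all factors of the list are particular to photoreceptors. Otx2, the factor that acts upstream of Crx, was 13.19, 12.83, 13.09 and 13.08 in GTML tumours and 7.25 to 11.54 elsewhere. Rorb, a nuclear receptor of the rod pathway, was 12.27, 11.60, 11.96 and 9.99, against 5.16 to 7.45, and Casz1 was 9.72, 8.61, 8.55 and 8.73, against 4.95 to 6.06. Like those of Crx and Nrl, the GTML values of the 7 factors lay above all others, while the rest of the 16 did not. The list was chosen with earlier results of these data known, so it is no independent support. Rorb was 6.12 above MERP (SE 0.35, limma adjusted p = 1.54e-11). Otx2 is a factor of the choroid plexus and of unipolar brush cells too. Of 6 choroid plexus and 4 unipolar brush cell markers, 1 each, Otx2 in both, lay above all others, against 3.63% of all genes. Eomes, another unipolar brush cell marker, was 3.62 to 4.51 in GTML tumours, below all others (5.03 to 9.98). Of these 4 markers, 1 was called higher and 2 lower than in adult cerebellum, where 27.3% of all genes were higher and 27.9% lower. Against GNPs, 2 were higher and 1 lower, where 16.1% of all genes were higher and 25.7% lower.

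Of 20 further photoreceptor genes measured, 5 had all GTML arrays above all others (Rp1l1, Rgs9bp, Lrit1, Rd3 and Cacna1f), against 3.63% of all genes tested. Against adult cerebellum, 9 of the 20 were called higher, where 27.3% of all genes were. Slc24a2 (-3.16), Gnb5 (-1.76) and Cnnm4 (-0.96) were called lower, 3 of the 20 against 27.9% of all genes. Rp1l1, a protein of the photoreceptor axoneme, was 9.72, 8.95, 9.32 and 8.99 in GTML tumours and between 3.26 and 3.70 on the others, and was 5.82 above adult cerebellum (SE 0.14, limma adjusted p = 2.25e-18). The cone visual pigments Opn1sw and Opn1mw were not set apart, at 3.95 to 4.21 and 4.84 to 5.31 in GTML tumours, against 3.53 to 4.14 and 4.85 to 5.52.

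The pineal gland shares much of this programme. Tph1, the first enzyme of serotonin synthesis, was 8.91, 6.45, 9.69 and 7.31 in GTML tumours, against 3.60 to 4.96, and Lhx4 was 9.31, 8.07, 9.99 and 8.77, against 4.61 to 5.42. Aanat, which makes the melatonin precursor and defines the pineal gland, was 6.62, 6.88, 6.81 and 6.70, against 6.12 to 6.82, and did not separate the groups. Chrna3, also of this list, went the other way against the GNPs, with a difference of -3.18 (SE 0.50, limma adjusted p = 2.46e-05). It differed by -2.84 from MERP and by -3.13 from Ptch1+/- tumours, but by 1.14 from adult cerebellum. Of 7 pineal genes measured, 4 were called higher and 1 lower than in GNPs, where 16.1% of all genes were higher and 25.7% lower. Against adult cerebellum, 4 were higher and 0 lower, where 27.3% of all genes were higher and 27.9% lower. Among these 7, 2 had all GTML arrays above all others, against 3.63% of all genes tested, and Asmt and Bsx were not measured. Of 10 genes of other retinal cells, such as Rpe65 of the pigment epithelium, no gene did so, a count near the share of 3.63%. Rpe65, Lrat, Tyr and Mlana were near background in GTML tumours, with means of 4.39, 3.42, 3.64 and 3.54. The part of any cell type in these values was not tested.

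**Figure D4:**
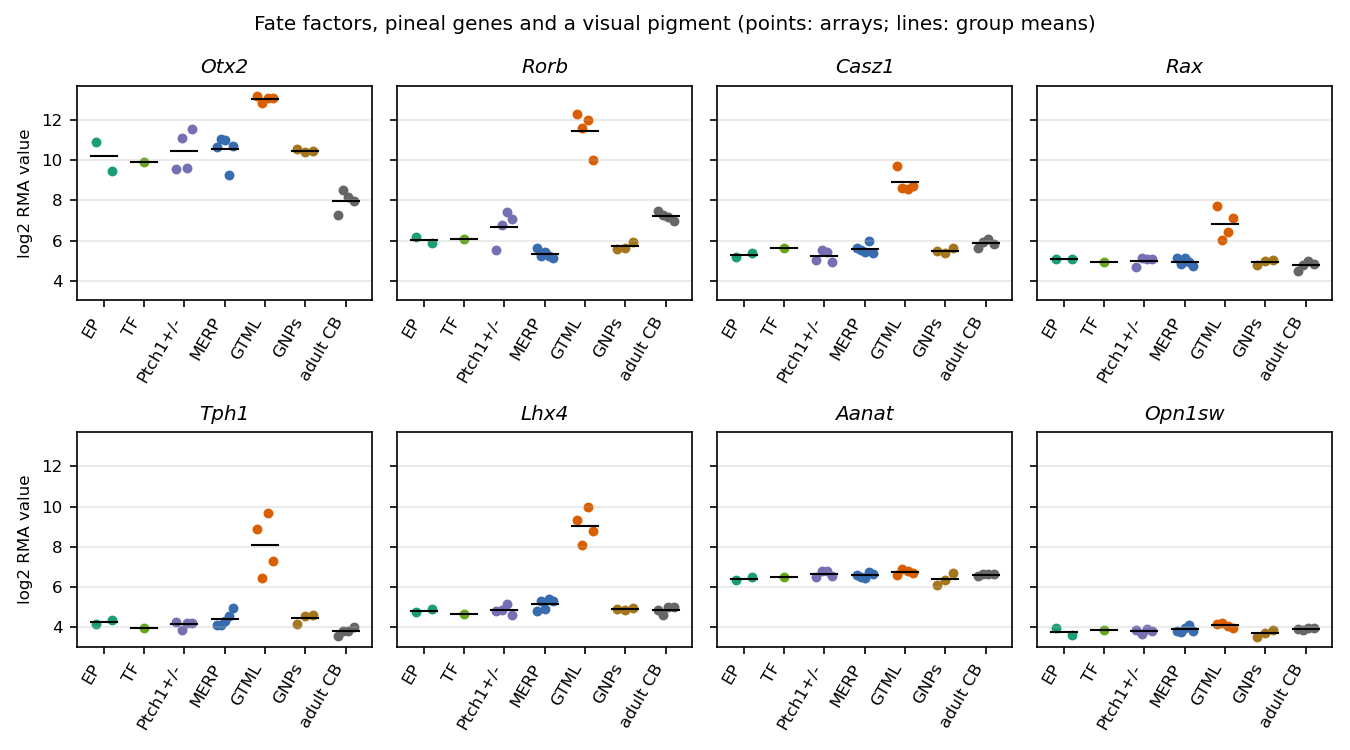
Strip plots of the fate factors Otx2, Rorb, Casz1 and Rax, the pineal genes Tph1, Lhx4 and Aanat, and the visual pigment gene Opn1sw (log2 RMA value on the y axis, groups on the x axis; points are arrays, lines are group means). GTML points lie above all others in the first 6 panels and among them for Aanat and Opn1sw.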

How the data were processed

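RNA from 23 mouse samples (2 EP and 1 TF CRISPR-Ptch1, 4 GTML, 4 Ptch1+/- and 5 MERP tumours, 3 GNPs, 4 adult cerebella) was hybridised to Affymetrix mouse arrays. The authors made the deposited log2 values by RMA in Affymetrix Expression Console 1.3.1, and which arrays were normalised together is not given in the sources used here. RMA shares information between arrays, no detection calls are given, and array number limits the precision. Of 45101 probe sets, 34958 had 1 gene in the annotation, 932 several and 9211 none, and 34754 were matched by Entrez identifier, giving 18194 genes. Groups were fitted together in limma 3.58.1 (R 4.3.3), with EP and TF pooled, and called at a Benjamini-Hochberg adjusted p under 0.05 over all genes. The fit was tested on simulated data. The study's methods name no test between groups. Members and lists were chosen with earlier results of these data known. Values on every array were given for up to 20 members by F test p. These were taken from members called in the F test whose highest group mean exceeded the mean of the array medians. Further members, including those near background, were added to complete their families. Names past the 4 largest differences of another list were chosen after their values were seen. Alternatives covered centring, probe set choice, dim genes, array weights, a fold minimum, TF alone, a replicate block and leaving out each array. Promoters are RefSeq GRCm38.p6, and figures used matplotlib 3.10.9.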

Additional observations from a re-analysis of the deposited data

Results flagged for a closer look

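Over 80 groups of 4 or 5 arrays of the named members, 8 held an array that stood apart from the others of its group, where chance gives about 1 in 20. In GTML tumours this was Abca4, with 9.73 on array 2 against 10.55 to 10.70 on the other three. In MERP tumours, array 4 was highest for Pde6g (6.64, others 6.04 to 6.20) and Pde6b (5.25, others 4.30 to 4.52), and array 3 was lowest for Tulp1 (5.08, others 5.36 to 5.45) and Pde6d (9.31, others 9.89 to 10.05). In Ptch1+/- tumours, Sag was lowest on array 1 (4.79, others 4.97 to 4.99) and Guca1a was highest on array 2 (4.13, others 3.84 to 3.87). In adult cerebellum, Gnat2 was lowest on array 2 (4.44, others 4.55 to 4.58). The cause of these values was not tested.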

How the results depend on the processing

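Counts of members called in the GTML comparisons stayed within 1.5 times of the reported ones under the alternatives run, with the exception of 18 against GNPs at a 2-fold minimum, and 3262 of 3268 alternative values of the named members in GTML comparisons kept their side of the threshold, while 6 lost it (Gngt2, Prdm1 and Unc119). Among comparisons of CRISPR-Ptch1 tumours the counts moved more. Against MERP (1 as reported) they were 2 with arrays centred on all probe sets, 2 with quantile normalisation again, 0 with the mean of the probe sets, 0 with the probe set of highest SD, 0 without dim genes, 11 with array weights, 0 at a 2-fold minimum, 0 with TF alone, 2 with only the groups compared and 5 with centring on the gene median, which was chosen after seeing the data. Against adult cerebellum (7) they were 16 with array weights, 1 at a 2-fold minimum and 3 with TF alone, against GNPs (4) 14 with array weights and 0 with TF alone, and against Ptch1+/- (6) 16 with array weights, 2 at a 2-fold minimum, 2 with TF alone and 18 with centring on the gene median, which differs between these groups by the values given with that comparison. Leaving out 1 array in turn gave 0 to 3 against MERP, 2 to 7 against Ptch1+/-, 3 to 5 against GNPs, 5 to 8 against adult cerebellum and 25 to 28 against GTML, and, for GTML, 23 to 28 against GNPs, 26 to 29 against MERP, 25 to 29 against Ptch1+/- and 25 to 28 against adult cerebellum, with 28 to 31 in the F test. Against MERP, EP array 1 or 2 or MERP array 2 or 4 left out gave 0, GTML array 1 or 2, MERP array 1 or adult array 2 left out gave 2, and GTML array 4 left out gave 3. Against Ptch1+/-, EP array 1 or Ptch1+/- array 4 left out gave 2, and EP array 2 left out gave 3. With a replicate block the counts were 31 in the F test, 5, 4, 1, 7 and 26 for CRISPR-Ptch1 against adult cerebellum, GNPs, MERP, Ptch1+/- and GTML, and 27, 25, 26 and 28 for GTML against adult cerebellum, GNPs, MERP and Ptch1+/-. Equal replicate numbers did not pair the arrays (median r of -0.0043 over 46 pairs, 6 of them above 0.1). The cause of the moves was not tested. With no detection calls, changes of genes near background are not measurable downwards.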

Other observations

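Outside the GTML tumours, MERP array 4 was the highest of the 19 arrays for 13 of the 38 photoreceptor genes, Crx (5.21), Pde6b (5.25), Gnb3 (6.07) and Guca1a (4.86) among them, and for 12.9% of all genes. The levels stayed below the GTML arrays for these 4 genes. Its lower quartile was 4.58 and its array median 5.999, against 4.46 to 4.48 and 6.03 to 6.06 for the other MERP arrays, and the part of this in the values was not tested.

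Six6, an eye field factor, was spread widely within the GTML tumours, at 4.59, 3.43, 8.18 and 6.42, against 3.26 to 4.08 on the other arrays. Of the members with several probe sets, 12 in number, 16 probe sets were not used, and 7 of these had all GTML arrays above all others. The 3.63% given for all genes holds for the probe set used per gene, and no share over unused probe sets is given here. Among the 16, Pde6g was at 6.88 to 9.69 (others 5.18 to 5.65) and Rbp3 at 3.86 to 6.13 (others 2.96 to 3.49). The unused Arr3 and Guca1b probe sets did not separate the groups. Rgs9 was flat by the probe set used and separated by another (3.998 to 4.81, others 3.24 to 3.82).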
